A study of Mus musculus with 4 samples.

Results

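The ETS genes described here encode 8 transcription factors of the ETS family other than PU.1: Fli1, Erg, Etv6, Elf1, Ets1, Ets2, Gabpa and Elk3. Their accessibility was read from single-cell ATAC-seq, in which the Tn5 transposase cuts open chromatin and the cuts in each peak are counted in each cell. Peaks were taken as belonging to a gene when they overlapped its body or the 5000 bp upstream of it on GRCm38. In this way 197 of the 93513 peaks of the table were assigned to the 8 genes, 11 at promoters and 186 elsewhere. Of these peaks, 145 held at least 20 counts (10 promoter and 135 other peaks) and 9 had no count in any cell, which allows at most 0.131 CPM over all cells. CPM are the counts of a peak divided by the counts of all peaks and multiplied by 1000000.

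The mice were of the C57BL/6JRj strain. The cells were LT-HSCs, that is long-term hematopoietic stem cells, which maintain blood formation over a lifetime. The table is named in the labels of CLCA3A1high and CLCA3A1low LT-HSCs, both sorted with an antibody to the surface protein CLCA3A1 from old mice of 22 to 28 months. Each group was 1 sample of 10000 sorted cells, 2500 from each of 4 mice, so mice cannot be told apart and no replicates were available. The study asked how the accessible chromatin of single stem cells changes with age. Cell barcodes ended in 1 or 2, and no label pairs an ending with a sample. The values are therefore given for barcode set 1 and barcode set 2 without a group name. No test between groups was possible, and every interval given is a 95% interval of counting error only.

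Barcode set 1 held 818 cells and 13050952 counts, and barcode set 2 held 636 cells and 9820094 counts. No barcode was shared by both sets. Of the values above 0, 88.7% were even, because a fragment usually brings a pair of cuts. The counts of a cell are thus not independent, and intervals from counts are too narrow. Ratios were therefore also computed with each peak counted once per cell. The promoters of 6 LT-HSC markers summed to 200 CPM in set 1 and 175 CPM in set 2, with Mecom highest at 99.5 CPM over all cells and Slamf1 lowest at 4.81 CPM. The promoters of 3 progenitor markers (Flt3, Cd34 and Cd48) summed to 44.4 and 85.0 CPM. Endothelial cells also use Fli1 and Erg, and the promoters of 5 of their marker genes summed to 232 and 176 CPM. Of these, Esam was highest at 90.2 CPM over all cells and Cdh5 lowest at 4.63 CPM. The promoters of 5 T cell markers summed to 32.2 and 48.4 CPM, with Cd3d highest at 33.8 CPM over all cells and no promoter count at Cd3e, Cd3g and Cd8a. Of the further lists of 5 markers each, B cell promoters summed to 61.6 CPM in set 1 and 57.4 CPM in set 2, and myeloid ones to 77.2 and 81.4 CPM. Erythroid promoters summed to 83.6 and 64.8 CPM, and megakaryocyte ones to 151 and 152 CPM. Counts at the promoters of a list do not show that cells of this type were present. The part of these differences in the results below was not tested.

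ETS factors share a DNA-binding domain of the winged helix-turn-helix type that reads a GGAA core, and the bases beside the core set which member binds best. Fli1 and Erg bind blood enhancers together with Runx1, Gata2, Tal1, Lyl1 and Lmo2 and are needed to keep stem cells. Etv6 is a repressor that adult stem cells need in the bone marrow. Elf1 is an activator of blood and endothelial genes, Ets1 is best known from lymphocytes, and Ets2 is a target of MAP kinase signalling. Gabpa is the DNA-binding subunit of GABP and acts at many housekeeping promoters. Elk3 is a ternary complex factor that works with serum response factor.

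Sequences are shown for an internal Erg promoter and for 6 of the 17 other peaks at which the barcode sets differed by at least 1.5-fold and the interval once per cell excluded no difference, chosen after their values were seen. The first is the RefSeq promoter of Erg (GRCm38.p6, chr16:95459349-95459598, minus strand), the 250 bases before the start of the shorter transcripts. It was the promoter of the 8 genes with the widest gap between the sets. The other sequences are 200-base stretches of GRCm38 (plus strand) without an annotated exon. Each lies inside a peak whose centre is at the stated distance from the nearest coding start of its gene, with upstream positions written as negative. Capitals mark short words found by search on both strands. The ETS core word was AGGAAG or CGGAAG. The core word of GATA factors was AGATAA, and that of RUNX factors was TGTGGT. An E-box word was CAGATG or CAGCTG. An AP-1 word was TGACTCA or TGAGTCA, and a TEAD word was ACATTCCA, ACATTCCT, GCATTCCA or GCATTCCT. Neighbouring words can overlap. A word is a match of letters and not a shown binding site.
Erg internal promoter: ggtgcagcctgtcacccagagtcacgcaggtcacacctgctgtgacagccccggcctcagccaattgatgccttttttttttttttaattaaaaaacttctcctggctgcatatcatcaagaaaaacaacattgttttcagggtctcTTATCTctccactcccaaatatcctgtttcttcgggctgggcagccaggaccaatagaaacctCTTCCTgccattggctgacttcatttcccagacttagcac
Erg, at -5.0 kb, chr16:95463887-95464086, more open in set 1: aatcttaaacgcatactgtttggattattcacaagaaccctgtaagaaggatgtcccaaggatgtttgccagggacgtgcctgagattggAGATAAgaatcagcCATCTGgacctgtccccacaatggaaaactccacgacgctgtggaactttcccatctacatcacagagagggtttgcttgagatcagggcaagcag
Erg, at 3.3 kb, chr16:95455084-95455283, more open in set 2: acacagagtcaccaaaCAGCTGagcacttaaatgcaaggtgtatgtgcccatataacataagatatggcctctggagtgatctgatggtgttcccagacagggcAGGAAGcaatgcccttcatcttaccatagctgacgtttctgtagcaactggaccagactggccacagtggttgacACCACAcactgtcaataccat
Fli1, at 11.1 kb, chr9:32529929-32530128, more open in set 1: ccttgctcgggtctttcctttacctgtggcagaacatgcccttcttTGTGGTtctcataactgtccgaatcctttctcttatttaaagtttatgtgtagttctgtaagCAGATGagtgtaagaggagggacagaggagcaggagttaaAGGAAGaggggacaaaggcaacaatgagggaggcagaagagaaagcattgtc
Elf1, at 6.1 kb, chr14:79487641-79487840, more open in set 1: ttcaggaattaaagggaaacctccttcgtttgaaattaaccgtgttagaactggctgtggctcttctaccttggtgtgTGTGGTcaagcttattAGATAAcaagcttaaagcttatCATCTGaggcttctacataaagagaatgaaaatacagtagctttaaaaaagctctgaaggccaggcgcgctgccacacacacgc
Elf1, at 6.4 kb from its second start, chr14:79521879-79522078, more open in set 2: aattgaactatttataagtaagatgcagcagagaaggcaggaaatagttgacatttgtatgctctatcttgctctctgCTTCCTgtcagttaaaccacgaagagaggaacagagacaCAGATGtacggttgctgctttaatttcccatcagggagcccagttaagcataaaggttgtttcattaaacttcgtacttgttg
Ets1, at 9.8 kb, chr9:32705929-32706128, more open in set 2: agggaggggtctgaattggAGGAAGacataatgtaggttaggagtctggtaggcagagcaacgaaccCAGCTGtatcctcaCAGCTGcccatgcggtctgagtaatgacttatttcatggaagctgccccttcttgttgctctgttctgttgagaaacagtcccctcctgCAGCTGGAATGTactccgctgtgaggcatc

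Summed over all peaks, the 8 loci were almost equally accessible in both barcode sets. The log2 ratios of single peaks reached further from 0 than those of whole loci. Single peaks hold fewer counts, so this wider spread is not read as a result. The 197 peaks summed to 1593 CPM in set 1 and 1632 CPM in set 2. This gave a log2 ratio (set 1 divided by set 2, as for all ratios here) of -0.04 (-0.07 to -0.01), and of -0.01 (-0.06 to 0.04) with each peak counted once per cell. The 39 and 18 cells with over 3 times the median counts decided its sign, since without them the log2 ratio was 0.02 (-0.02 to 0.05). Promoter peaks summed to 525 and 541 CPM, with a log2 ratio of -0.04 (-0.09 to 0.01). Other peaks summed to 1067 and 1091 CPM, with a log2 ratio of -0.03 (-0.07 to 0.01). None of the 8 loci differed by 1.5-fold, which 8.22% of the 16987 loci of protein-coding genes with at least 20 counts did in either direction.

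**Figure D1:**
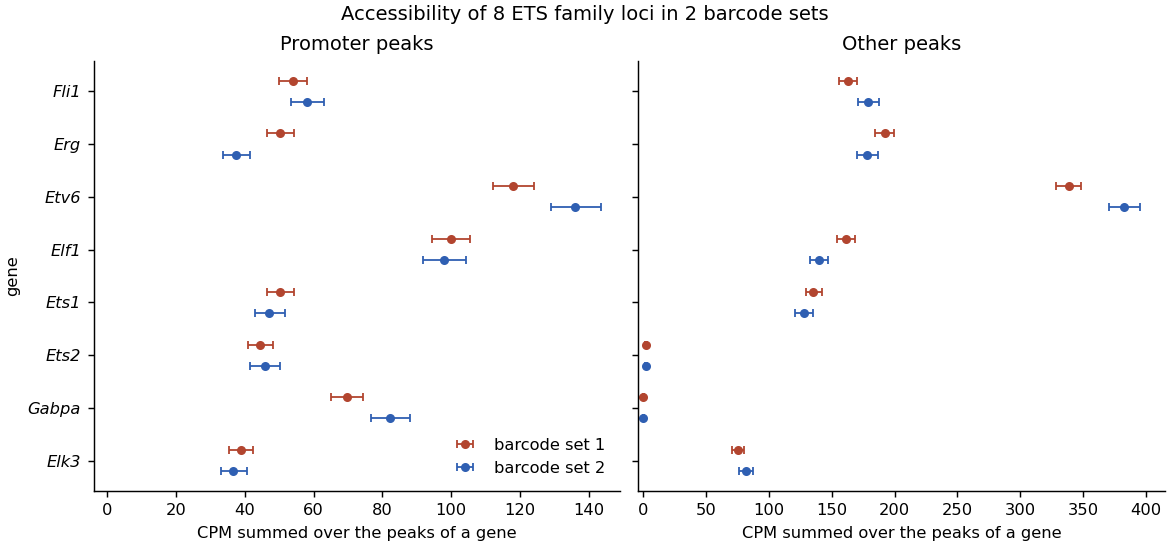
Summed CPM of the promoter peaks (left) and of all other peaks (right) of each ETS gene in barcode set 1 (red) and barcode set 2 (blue), with exact 95% Poisson intervals that cover counting error only. The sets lie close to each other in most genes, and the Erg promoter peaks (50.3 against 37.5 CPM) stand furthest apart in ratio.

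Etv6 was the locus with the most counts of the 8. It summed to 456 CPM in set 1 and 519 CPM in set 2, with a log2 ratio of -0.18 (-0.24 to -0.13) that became -0.07 (-0.16 to 0.02) when peaks were counted once per cell. Its promoter peak of 11192 bp (chr6:134034347-134045538) held 118 and 136 CPM, a log2 ratio of -0.21 (-0.31 to -0.10) from all counts and -0.05 (-0.26 to 0.16) once per cell. A single cell brought up to 59 counts to this peak. The gap at Etv6 thus shrank when the number of cuts per cell was left out.

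Elf1 pointed the other way, and its counting intervals lay above 0 under both ways of counting. Its locus summed to 261 CPM in set 1 and 237 CPM in set 2. The log2 ratio was 0.14 (0.06 to 0.21) from all counts and 0.18 (0.06 to 0.31) once per cell. The peaks outside the promoters carried it, with 161 and 140 CPM and a log2 ratio of 0.21 (0.11 to 0.31), while the promoter peaks held 99.8 and 97.9 CPM. In cells thinned to 4899 counts each, an Elf1 peak outside the promoters was open, that is had at least 1 count, in 45.4% (41.8 to 49.0) of cells of set 1 and 38.6% (34.5 to 42.7) of cells of set 2.

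Fli1 and Erg, the pair that acts together in stem cells, differed in direction. The Fli1 locus summed to 217 CPM in set 1 and 237 CPM in set 2. Its log2 ratio was -0.13 (-0.21 to -0.05), and -0.15 (-0.28 to -0.03) once per cell. The Erg locus summed to 242 and 216 CPM. Its log2 ratio was 0.17 (0.09 to 0.25), and 0.12 (-0.01 to 0.24) once per cell. Both values from all counts, like those of Etv6 and Elf1, lay inside the range of the 8659 protein-coding loci with at least 1000 counts. The log2 ratios of those 8659 loci ran from -0.35 at the 5th percentile to 0.34 at the 95th percentile.

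The remaining loci differed less, except for Gabpa. Ets1 summed to 186 and 175 CPM (log2 0.09, -0.00 to 0.18), Ets2 to 46.4 and 47.9 CPM, and Elk3 to 114 and 118 CPM. Gabpa had 1 peak only, its promoter, with 69.7 CPM in set 1 and 82.3 CPM in set 2. The log2 ratio of this peak was -0.24 (-0.38 to -0.10), and once per cell -0.21 (-0.47 to 0.04), an interval that includes no difference. The Gabpa peak (chr16:84834262-84836539) also covers the start of Atp5j, which encodes a subunit of the mitochondrial ATP synthase and is read from the opposite strand, so its counts cannot be divided between both genes. Likewise the Elf1 promoter peak overlaps the start of Wbp4, and 5 peaks of Elk3 overlap Cdk17.

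At the promoters, no member peak reached a 1.5-fold difference. None of the 10 promoter peaks with at least 20 counts was 1.5-fold higher in set 1, against 6.17% of all promoter peaks, and none was 1.5-fold higher in set 2, against 5.11%. The widest gap was at Erg. Its internal promoter (chr16:95457775-95460839), around the starts near 95459303 whose upstream bases are shown above, held 37.7 CPM in set 1 and 26.3 CPM in set 2. It was open in 180 of 818 cells of set 1 and 93 of 636 cells of set 2. The log2 ratio was 0.52 (0.30 to 0.74) from all counts, 0.53 (0.16 to 0.90) once per cell and 0.42 without the deepest cells.

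The distal Erg start at 95586593, which begins the longest transcripts, was less open and more alike. Its peak (chr16:95584901-95586575) held 12.6 and 11.2 CPM, with a log2 ratio of 0.17 (-0.18 to 0.54). The order of both Erg starts, with the internal one more accessible, was thus the same in both sets. Elf1 also had a pair of starts, and there the first (chr14:79480468-79483404) was the more open with 71.3 and 71.7 CPM, against 28.5 and 26.2 CPM at the second (chr14:79515131-79516731). At Elk3, an annotated internal start near 93284975 had only a peak of 15 bp without a count.

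Per length of peak, the promoters were ordered as follows over all cells. Gabpa led with 33.0 CPM per kb (31.4 to 34.6), followed by Ets2 with 26.2, Elf1 with 21.8, Ets1 with 16.6, Elk3 with 13.0, Etv6 with 11.2, Erg with 9.45 and Fli1 with 8.27 CPM per kb (7.82 to 8.74). Counting intervals of neighbours in this order did not overlap over all cells. Within the sets the lowest ranks changed places, since in set 1 Erg (10.6 CPM per kb) stood just above Etv6 and in set 2 Fli1 (8.63) stood above Erg (7.91 CPM per kb). The promoter peaks of Etv6 and Fli1 (6728 bp) reach far beyond the start of their genes, which lowers their value per kb beside that of the compact Ets2 peak of 1721 bp. Per kb, the Gabpa peak, which it shares with Atp5j, thus stood at the top, and Erg and Fli1 were among the 3 lowest in both sets. Without division by length, the Etv6 promoter was highest with 126 CPM over all cells.

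Thinning to equal depth left 749 cells of set 1 and 560 of set 2. The Etv6 promoter was open in 35.0% (31.6 to 38.5) of cells in set 1 and 37.9% (33.8 to 42.0) in set 2. The Elf1 promoters followed with 30.6% and 28.6%, and the Gabpa promoter with 22.4% and 25.0%. The Fli1 promoter was open in 17.5% (14.8 to 20.4) and 20.9% (17.6 to 24.5) of cells. For Ets1 the shares were 17.1% and 16.1%, for Ets2 16.4% and 15.7%, and for Elk3 13.5% and 14.3%.

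The Erg promoters were open in 16.6% (14.0 to 19.4) of cells of set 1 and 12.3% (9.71 to 15.3) of cells of set 2, the gap already seen in CPM. For each of the 8 genes, Erg included, the intervals of both sets overlapped. Averaged over the 8 genes, a promoter was open in 21.1% of thinned cells of set 1 and 21.3% of set 2. Without thinning these means were 33.7% and 32.2%. A cell had a mean of 1.69 open promoters in set 1 and 1.71 in set 2 out of 8. None was open in 14.4% and 14.1% of cells, and no cell had more than 5. At this depth a promoter without a count cannot be told from a closed one.

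**Figure D2:**
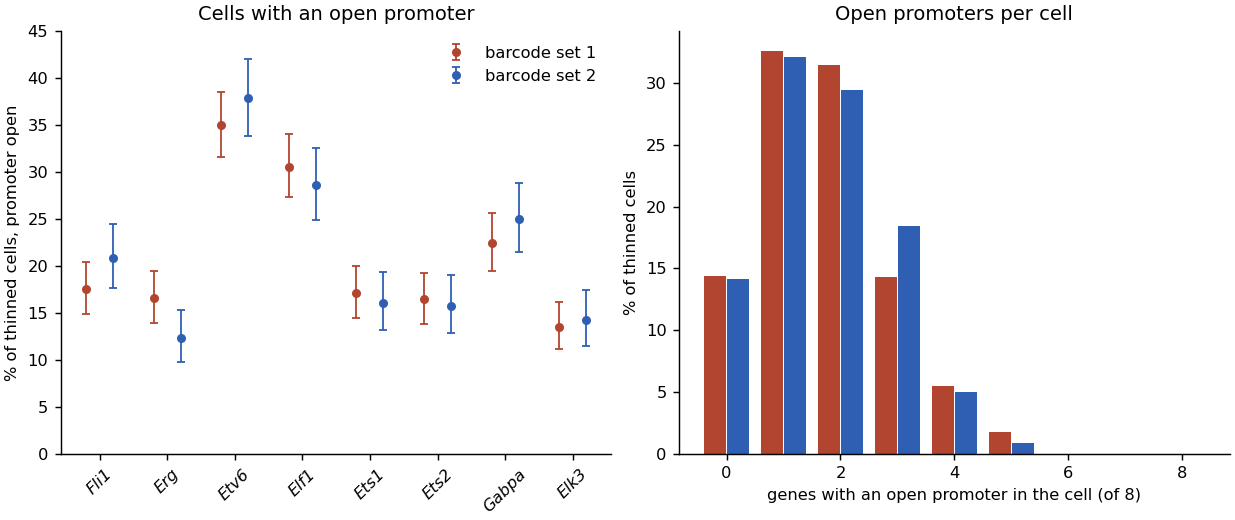
Left, percent of cells thinned to equal depth with at least 1 count in a promoter peak of each ETS gene, with exact 95% Clopper-Pearson intervals, in barcode set 1 (red) and barcode set 2 (blue). Right, percent of these cells by the number of the 8 genes with an open promoter, with means of 1.69 in set 1 and 1.71 in set 2.

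Most of the accessibility of these genes lay outside their promoters. Promoter peaks held 33.0% (32.3 to 33.6) of the counts of the 8 loci in set 1 and 33.2% (32.4 to 33.9) in set 2. Over the 8598 protein-coding loci with at least 1000 counts, the median share was 75.0%, and over the counts of all peaks of the table the share was 53.7% in both sets. Erg had the lowest promoter share of the 8 with 19.4% over all cells, then came Fli1 with 24.7%, Etv6 with 26.0%, Ets1 with 27.0%, Elk3 with 32.7% and Elf1 with 39.4%. Ets2 (95.7%) and Gabpa (100%) were built differently, with nearly all counts at the promoter. Of the 8598 loci, 8.99% had a share as low as Erg and 22.5% one as low as Elf1. Runx1, a binding partner of Fli1 and Erg, had shares of 23.0% in set 1 and 25.6% in set 2. Among ETS genes outside the 8, Spi1 had 68.1% and 72.1%, and Elf4 had 39.1% and 32.9%.

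The low shares went with many peaks. The Etv6 locus held 70 peaks, and only 0.0698% of loci had as many, while Erg had 35, Fli1 34, Elf1 22, Ets1 20, Elk3 13, Ets2 2 and Gabpa 1. The median locus had 4. Per 100 kb, Etv6 had 29.2 peaks and Fli1 27.1, Elf1 20.7, Elk3 18.9, Ets1 15.8 and Erg 15.1, against a median of 10.2. Of the 186 other peaks, 171 were intronic, 9 lay before the coding transcripts within the gene, 4 touched a coding exon and 2 lay upstream.

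**Figure D3:**
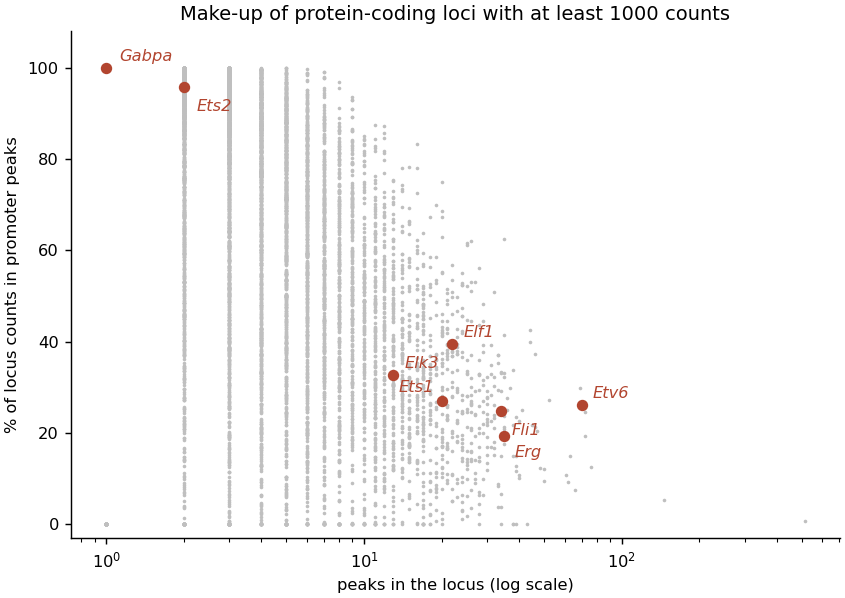
Percent of locus counts in promoter peaks against the number of peaks (log scale) for 8598 protein-coding loci with at least 1000 counts (grey) and the 8 ETS genes (red). Etv6, Erg, Fli1, Ets1, Elk3 and Elf1 lie at many peaks and low promoter shares, whereas Gabpa and Ets2 lie at few peaks and shares of 95.7% and more.

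By CPM of whole peaks, not divided by their length, single elements outside the promoters reached the level of promoters at some loci. At Ets1, a peak at -23.4 kb, before the coding start (chr9:32671935-32673263) held 70.0 CPM in set 1 and 50.5 CPM in set 2, more than the Ets1 promoter (chr9:32694199-32697145) with 50.3 and 47.0 CPM. The log2 ratio of this upstream peak was 0.47 (0.31 to 0.63), and 0.29 (0.02 to 0.56) once per cell. At Erg, the peak 19.9 kb into the shorter transcripts (chr16:95436486-95442295) held 64.4 and 50.6 CPM, also above its promoters. Its log2 ratio of 0.35 (0.19 to 0.51) fell to 0.00 (-0.28 to 0.29) once per cell. This Erg peak was open in 245 of 818 and 182 of 636 cells, so the sets differed more in counts per open cell than in open cells.

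At Fli1, the strongest other peak (chr9:32505776-32510961, 33.2 kb into the gene) held 53.3 and 63.8 CPM beside 53.9 and 58.0 CPM at the promoter (chr9:32538511-32545238). At Elf1 the strongest (chr14:79529686-79531106) held 38.3 and 30.0 CPM, and at Elk3 (chr10:93259570-93262676, shared with Cdk17) 37.5 and 44.2 CPM beside 38.8 and 36.7 CPM at the Elk3 promoter (chr10:93308927-93311814). At Etv6 the strongest other peak lay 150.5 kb into the gene (chr6:134185421-134187594) and held 31.3 and 35.1 CPM. The only other peak of Ets2 held 1.92 and 2.14 CPM. At Ets1, Erg, Fli1 and Elk3 the strongest element outside the promoters thus reached the CPM of a promoter peak, without regard to length. At Elf1, Etv6 and Ets2 the strongest element stayed below the strongest promoter peak.

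Of the 135 other peaks with at least 20 counts, 16 (11.9%) were 1.5-fold or more higher in set 1 and 17 (12.6%) were 1.5-fold or more higher in set 2. Over all 63505 other peaks these shares were 17.0% and 17.9%, and nothing about the ETS loci is read from the smaller shares. Of the 16 and 17 peaks, 14 and 15 had an interval that excluded no difference, and 7 and 10 had one with each peak counted once per cell. These peaks were picked by the same counts, so their intervals are a description only. The median log2 ratio of the 135 peaks was -0.11, beside 0.03 for all other peaks. From the 5th to the 95th percentile the 135 peaks ran from -0.83 to 0.81, and all other peaks from -1.23 to 1.08.

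The peaks that differed sat side by side with peaks that did not or went the opposite way. Of 53 other peaks tested, Etv6 had 4 higher in set 1 and 7 higher in set 2. The numbers were 6 and 2 of 17 at Elf1, 3 and 3 of 22 at Erg and 2 and 1 of 21 at Fli1. Ets1 had 1 and 3 of 13, and Elk3 0 and 1 of 8. Of the 53 other peaks tested at Etv6, 36 had a log2 ratio under 0, and of the 17 at Elf1, 12 had one above 0. At Erg the numbers were even, 11 and 11.

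**Figure D4:**
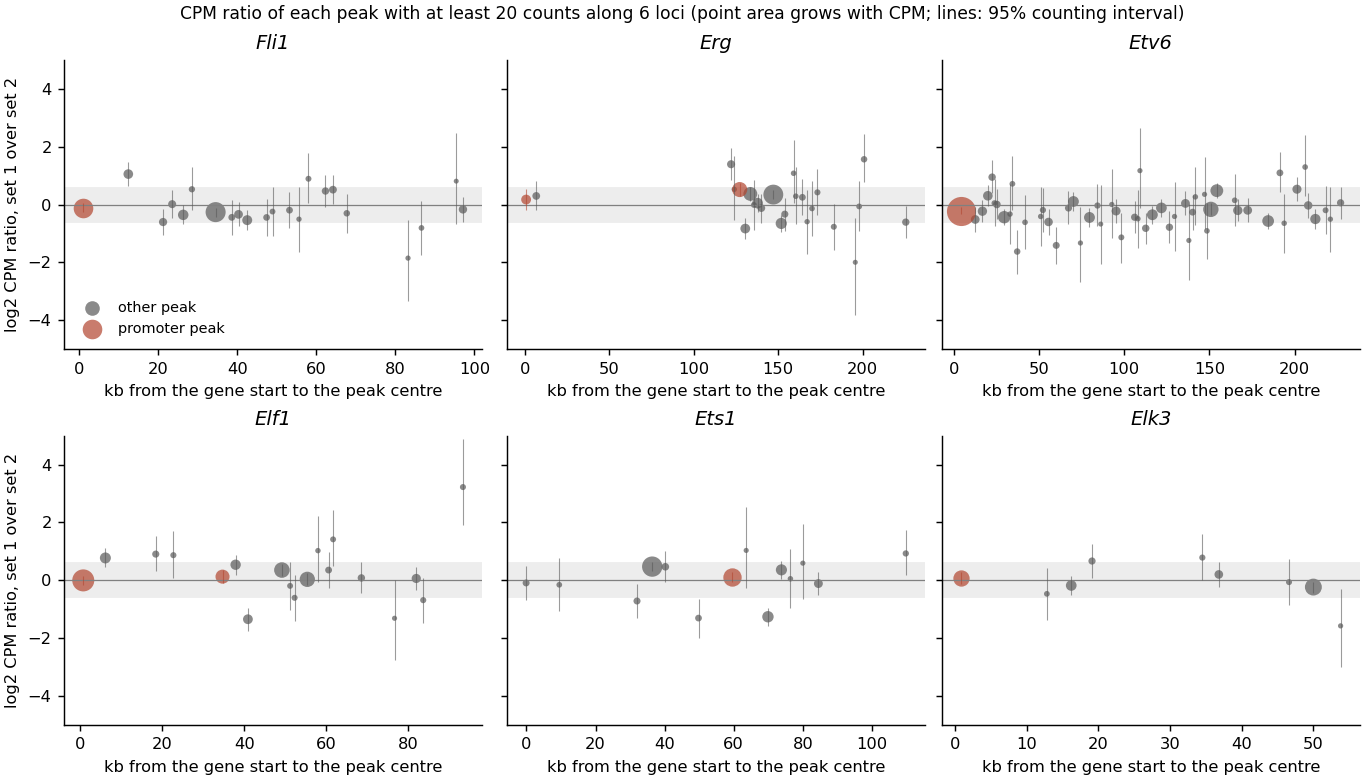
Log2 ratio of CPM of set 1 over set 2 for each peak with at least 20 counts, against the distance of the peak centre from the start of the gene in kb, for 6 ETS loci. Red points are promoter peaks and grey points other peaks, point area grows with CPM, vertical lines are 95% counting intervals and the grey band spans 1.5-fold in either direction; the promoter peaks lie in the band while single other peaks leave it on both sides.

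Around the internal Erg promoter, neighbouring elements moved apart. The peak at -5.0 kb from it (chr16:95463757-95465035) held 10.2 CPM in set 1 and 3.87 CPM in set 2 and was open in 61 and 13 cells. The log2 ratio was 1.40 (0.87 to 1.96), and 1.80 (0.92 to 2.79) once per cell. The printed stretch of this peak holds a GATA core word and an E-box word. This element and the promoter beside it were thus both more open in set 1.

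On the other side of the same promoter, the peak 3.3 kb downstream (chr16:95454651-95457243) was lower in set 1 with 8.43 against 15.0 CPM. This is a log2 ratio of -0.83 (-1.20 to -0.46), and of -0.74 (-1.34 to -0.15) once per cell. A peak 24.6 kb downstream (chr16:95434124-95435190) also favoured set 2 with 12.6 against 19.9 CPM. The far intronic peak at 73.5 kb (chr16:95385358-95386104) favoured set 1 with 5.13 against 1.73 CPM, and one at 68.4 kb (chr16:95390687-95391069) favoured set 2 with 5 against 15 counts, from 3 and 9 cells only. Erg peaks thus differed in both directions along the same introns, which the sum over the locus does not show.

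At Fli1, 1 element stood out. The peak 11.1 kb downstream of the coding start (chr9:32529286-32531669) held 15.2 CPM in set 1 and 7.33 CPM in set 2, while the locus as a whole was lower in set 1. It was open in 78 and 39 cells. The log2 ratio was 1.06 (0.66 to 1.47) from all counts and 0.57 (0.00 to 1.17) once per cell, and 1 cell brought up to 25 counts. The remaining Fli1 peaks past 1.5-fold, 1 in each direction, had 59 counts or fewer.

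At Elf1, the 3 peaks between its starts were all 1.5-fold or more higher in set 1. Only the first of them had intervals that excluded no difference both from all counts and once per cell. The peak 6.1 kb after the first start (chr14:79486574-79488077) held 19.6 CPM in set 1 and 11.5 CPM in set 2 and was open in 106 and 45 cells. Here the log2 ratio was 0.77 (0.44 to 1.10), and 0.81 (0.29 to 1.35) once per cell. Further along, the peak 27.2 kb after the second start (chr14:79542588-79543124) held 3.52 and 1.32 CPM. The peak at 58.9 kb (chr14:79574376-79574809) held 62 counts in 31 cells of set 1 and 5 counts in 4 cells of set 2, with a log2 ratio of 3.22 (1.92 to 4.89) and of 2.53 (1.03 to 4.49) once per cell.

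Against this direction, the Elf1 peak 6.4 kb after the second start (chr14:79521265-79522851) held 6.59 CPM in set 1 and 16.8 CPM in set 2. It was open in 41 cells of set 1 and 68 of the smaller set 2. On the log2 scale the ratio was -1.35 (-1.74 to -0.97), and -1.16 (-1.75 to -0.58) once per cell. Its printed stretch has an ETS core and an E-box word, whereas the stretch of the 6.1 kb peak has a RUNX core, a GATA core and an E-box word.

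At Ets1, 3 peaks were 1.5-fold or more higher in set 2 and 1 in set 1, while of all 13 other peaks tested 7 had a log2 ratio above 0. The peak 9.8 kb downstream (chr9:32705659-32706613) held 9.96 CPM in set 1 and 23.9 CPM in set 2 and was open in 57 and 93 cells. Its log2 ratio was -1.26 (-1.58 to -0.95), and -1.13 (-1.64 to -0.64) once per cell. Its printed stretch holds 3 E-box words, 1 of which runs into a TEAD word, and an ETS core word.

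The Ets1 peak at -10.0 kb (chr9:32685797-32686278) held 2.30 and 5.70 CPM, with a log2 ratio of -1.31 (-2.00 to -0.65), and the peak at -27.8 kb (chr9:32667830-32668563) held 3.52 and 5.80 CPM. The widely open peak at -23.4 kb, between these, went the opposite way, and the promoter itself differed little (log2 0.10, -0.08 to 0.27). The fourth Ets1 peak past 1.5-fold, at 49.7 kb (chr9:32745816-32746273), was the one higher in set 1 with 4.06 against 2.14 CPM. Its interval once per cell did not exclude no difference. Ets1 elements thus differed in both directions.

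Etv6 had the most peaks past 1.5-fold, but also the most tested. Of its 53 other peaks tested, 4 were higher in set 1 and 7 higher in set 2. Over all other peaks the shares were 17.0% and 17.9%, so nothing is read from this number. The peak 22.2 kb downstream (chr6:134057506-134058860) held 7.28 CPM in set 1 and 3.77 CPM in set 2, with a log2 ratio of 0.95 (0.39 to 1.54) and of 1.06 (0.21 to 1.99) once per cell. The peaks at 37.0 kb (chr6:134072545-134073350) with 1.69 and 5.19 CPM, and at 59.9 kb (chr6:134095370-134096318) with 2.45 and 6.52 CPM, favoured set 2. For the latter the log2 ratio was -1.41 (-2.07 to -0.78), and once per cell -0.98 (-1.96 to -0.04). At Elk3, a peak of 267 bp (chr10:93257242-93257508), shared with Cdk17, had 8 counts in set 1 and 18 in set 2.

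The words in the 500 bases at the centre of each peak were then counted. In long promoter peaks, such as that of Etv6, this centre can lie away from the coding start. Among the 10 promoter peaks, the longer GATA word (AGATAAGA or AGATAAGG) was found in 3, against 1.97% of all 16120 promoter peaks. The AP-1 word was also found in 3, against 5.49%, and an E-box word in 1, against 41.4%. Over the whole length of the peaks, the longer GATA word was found in 3 of 10, against 8.85%. The AP-1 word was found there in 6 of 10, against 20.1%, and an E-box word in 9 of 10, against 78.4%. Shares over whole peaks depend on peak length. The ETS core was present in 6 of 10, beside 64.9% of all promoter peaks. In the RefSeq promoters of 300 bases, 6 of the 8 genes were matched, and the ETS core was present in those of Erg, Etv6, Gabpa and Elk3. Among 27025 genes, 49.8% had the ETS core. The longer GATA word was present in the RefSeq promoters of 1 of the 6 genes, Erg, against 2.19% of the 27025 genes. The PU.1 word (Gabpa), the AP-1 word (Elf1) and the TEAD word (Erg) were each present in 1 of 6 as well. Their shares of all genes were 3.69%, 5.95% and 5.32%. With few promoters and many words, nothing about the ETS promoters is read from these numbers.

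The 135 other peaks had a mean GC content of 47.9%, beside 48.0% in all other peaks. The ETS core was found in 100 peaks (74.1%, against 69.3%), the RUNX core in 49 (36.3%, against 42.0%) and the GATA core in 24 (17.8%, against 23.9%). The PU.1 word GAGGAAGT was found in 11 (8.15%, against 9.84%), the AP-1 word in 12 (8.89%, against 13.8%), the TEAD word in 6 (4.44%, against 8.08%) and the E-box word in 74 (54.8%, against 53.7%). Searched over whole peaks, the order turned for the GATA core (41.5%, against 29.0%) and the RUNX core (55.6%, against 48.7%).

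Split by direction, the GATA core was found in 7 of the 16 peaks higher in set 1, in 3 of the 17 higher in set 2 and in 14 of the 102 in between. Over all other peaks these shares were 28.8%, 22.7% and 22.9%. The ETS core was found in 10 of 16, 15 of 17 and 75 of 102, beside 67.5%, 78.3% and 67.3% over all other peaks. The PU.1 word was found in 1 of 16, 2 of 17 and 8 of 102, beside 6.52%, 17.2% and 8.69%. The RUNX core was found in 4 of 16, 3 of 17 and 42 of 102, beside 40.3%, 50.6% and 40.0%. For the 3 of 17 the interval was 3.80% to 43.4% and lay below the share of all other peaks higher in set 2. For the GATA core in 14 of 102 the interval was 7.71% to 22.0%, also below the share of all other peaks in between. Both intervals stand out of many combinations of word and direction, with core words chosen after the data were seen. Nothing about the ETS loci is read from them. The few ETS locus peaks had wide intervals, and for the ETS core, the PU.1 word and the E-box these included the shares of all other peaks.

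**Figure D5:**
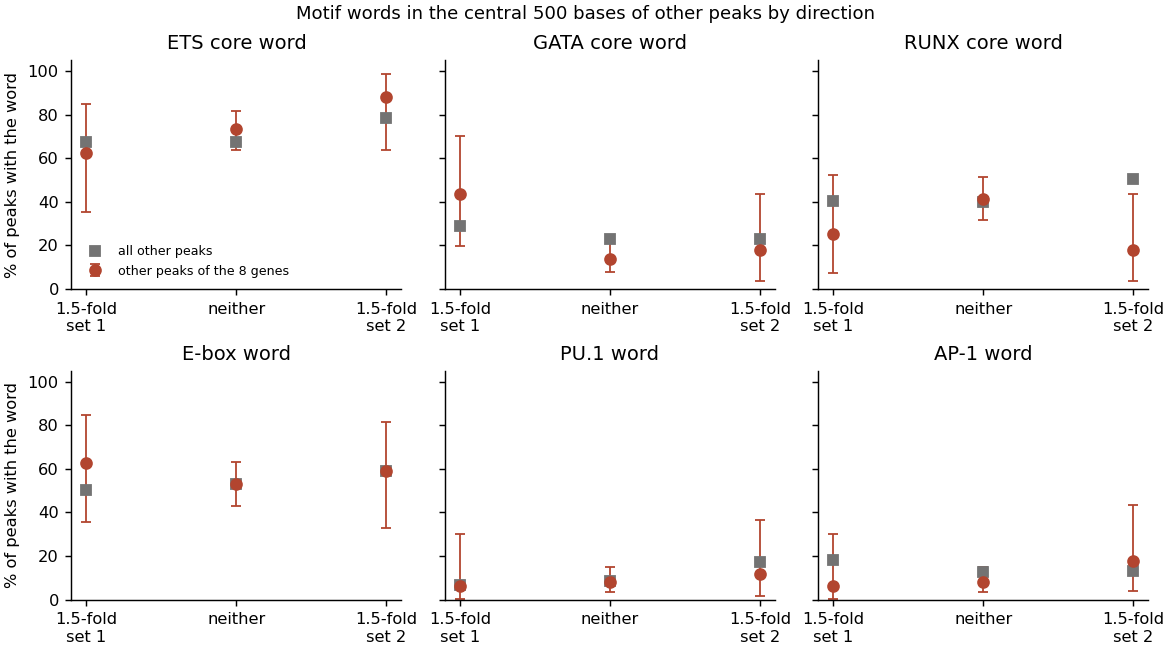
Percent of other peaks with a motif word in their central 500 bases, for peaks at least 1.5-fold higher in set 1, neither, or at least 1.5-fold higher in set 2. Red points are the 16, 102 and 17 peaks of the ETS genes with exact 95% Clopper-Pearson intervals, and grey squares are all other peaks; the GATA core is at 43.8% in the ETS peaks higher in set 1 and 17.6% in those higher in set 2, and both intervals include the value of all other peaks (28.8% and 22.7%).

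Cells were also ordered within each barcode set by the share of their thinned counts in peaks with the PU.1 word, leaving out the peaks of the 8 genes. The ordered cells were cut into 10 groups of 74 or 75 cells in set 1 and of 56 cells in set 2. The 8 loci had 1644 CPM in the lowest group and 1765 CPM in the highest group of set 1, and 1510 and 1689 CPM in those of set 2. These are log2 ratios, highest over lowest, of 0.10 (0.01 to 0.19) and 0.16 (0.06 to 0.27). The groups in between did not rise steadily, since the lowest value of set 1 (1449 CPM) and the highest of set 2 (1915 CPM) both lay in the sixth group. Ordering by the same word read backwards, which served as a control, gave log2 ratios of -0.21 and 0.32. The difference along the PU.1 word was thus no larger than along its control, and the promoter share of counts fell with the order (median 54.8% in the lowest and 52.4% in the highest group of set 1, 54.3% and 51.1% in set 2).

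Among the other 18 ETS genes of the list, 16 loci also differed by less than 1.5-fold. Spi1, which encodes PU.1, had 104 CPM in set 1 and 98.9 CPM in set 2. Ehf and Spdef, factors known from epithelia, passed 1.5-fold at low levels, Ehf with 2.53 and 5.91 CPM and Spdef with 9.04 and 5.19 CPM. None of the 5 partner genes did, with log2 ratios between -0.18 at Lyl1 and 0.29 at Gata2. Over the 20 groups of cells, the loci whose centred log2 CPM was most like the sum of the 8 were Ap3d1 (Pearson's r 0.79), Zfp655 (0.77) and Ipo5 (0.72), where the 95th percentile of 8659 loci was 0.41. The 3 loci were picked as the highest outside the 8 genes, so their place above this percentile follows from the choice. The groups of cells share libraries and differ in depth, and no test was made.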

How the data were processed

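Per the labels and the methods, the authors sorted LT-HSCs, prepared 10x Genomics libraries and processed the reads with Cell Ranger ATAC 1.2.0 on mm10 (GRCm38). They deposited raw counts of transposase cuts per peak and cell barcode, to which no normalization is stated. A second table, without peak names, was not used here, nor were the young and old samples. Peaks were assigned with GENCODE M21. A promoter peak shared at least 1 base with the window from 1000 bp before to 1000 bp after a coding transcript's start. From the deposited counts, CPM, and log2 ratios with a pseudocount of 1 CPM for calls of 1.5-fold (at least 20 counts), were computed. Ratios with intervals use no pseudocount. Intervals are exact (Poisson, Clopper-Pearson, conditional binomial) at 95%. For shares of cells, each cell was thinned to 4899 counts, the 10th percentile, leaving out 69 and 76 shallower cells. No doublet caller was run, and cells over 3 times the median counts were kept.

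The 8 genes, the lists, the words and the named peaks (the promoters, the strongest other peak of each gene and other peaks past 1.5-fold whose interval excluded no difference, with values for those that held once per cell) were chosen with earlier results of these data known. Values are also given for an Ets1 peak that did not hold once per cell. The 6-letter words and printed stretches were chosen after seeing the data. Intervals were tested on simulated counts that were independent of each other. The simulation had no paired cuts and no cells with many counts in 1 peak. It therefore cannot show how far the intervals are too narrow for these data. Python 3.11.15, NumPy 2.4.6, SciPy 1.17.1, pandas 2.3.3 and Matplotlib 3.10.9 were used.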

Additional observations from a re-analysis of the deposited data

How the results depend on the processing

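Of 53 alternative values of 13 results, 37 moved by less than the limits set and 16 by more. The small log2 ratios of the 8 loci changed sign under several settings. Without the cells over 3 times the median counts, the log2 ratio was 0.015 for the 8 loci and 0.030 for their other peaks, and with each peak counted once per cell it was 0.026 for the promoter peaks, which had 0.0080 when peaks were assigned by their centre. Counting once per cell lowered the promoter share to 27.8% in set 1 and 27.1% in set 2, by construction. A pseudocount of 5 CPM left 4 and 4 other peaks past 1.5-fold, and a minimum of 50 counts left 11 higher in set 2, since fewer peaks were tested. The mean share of open promoters was 33.7% and 32.2% without thinning and 33.2% and 33.4% at 2 times the depth, by construction. Along the PU.1 word, the reversed word gave log2 ratios of -0.21 and 0.32, 5 groups of cells gave 0.045 in set 1 and 0.036 in set 2, with intervals that include 0, and ordering the cells of set 2 by word peaks outside promoters gave -0.12; the cause was not tested. Scaling by a median of ratios shifts every log2 ratio by -0.02. The log2 ratio was then -0.059 (-0.089 to -0.029) for the 8 loci and -0.067 (-0.119 to -0.015) for their promoter peaks. For their other peaks it was -0.055 (-0.092 to -0.019). These counting intervals exclude 0, whereas those of promoter and other peaks included it with scaling by all counts. No paired analysis was possible because each group had 1 sample and no barcode set could be matched to a sample.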
